A study of Homo sapiens with 8 samples.

Results

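The nuclear-encoded subunits of the oxidative phosphorylation system were followed across 8 RNA sequencing libraries of MOLM-13 cells, a human acute myeloid leukemia line that carries the MLL-AF9 (KMT2A-MLLT3) fusion gene. The genes were chosen by symbol alone: every row named NDUFA, NDUFB, NDUFC, NDUFS or NDUFV with a number, UQCR, COX4 to COX8, ATP5, or SDHA to SDHD. This gave 93 of the 26475 rows of the count table, of which 81 passed the filter on low counts and were tested among 12401 genes. The cells, labelled as wild type, received the solvent DMSO, the Menin inhibitor VTP50469, the KAT6A inhibitor WM1119 (written WM119 in the sample labels), or VTP50469 and WM1119 together, called the combination here. Each group had 2 libraries. The sources used here gave no doses or durations for these libraries. The methods describe the drug experiments in general as independent biological replicates, in a larger number than the libraries analysed here, and give no word on separate cultures for these. The p-values therefore measure only the spread between libraries, which may be technical. MOLM-13 is 1 cell line, and every group shares its fusion gene and its growth conditions.

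Oxidative phosphorylation is the process by which the inner mitochondrial membrane turns the energy of electrons from NADH and succinate into ATP. Complex I (NADH dehydrogenase) and complex II (succinate dehydrogenase) feed electrons to ubiquinone, complex III (the cytochrome bc1 complex) passes them to cytochrome c, and complex IV (cytochrome c oxidase) passes them to oxygen. Complexes I, III and IV pump protons, and complex V (ATP synthase) uses the returning protons to make ATP. Most subunits are encoded in the nucleus as small proteins from short messenger RNAs, while complex II has no mitochondrially encoded subunit. Myeloid leukemia cells, stem-like ones among them, are known to lean on oxidative phosphorylation. None of the mitochondrially encoded subunits had a row in the table (0 rows), so only the nuclear share of each complex is described.

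Among the 93 rows, 82 were subunits in the strict sense or tissue isoforms of one, and 76 of these were tested. Complex I had 38 subunits and all 38 were tested, complex II had 4 and 4, complex III 8 and 8, complex IV 17 and 11, and complex V 15 and 15. The other 11 rows were 3 antisense transcripts, 2 readthrough transcripts, 4 retrocopies and 2 genes that bear a subunit-like symbol without encoding one (ATP5S and ATP5SL). They were counted apart, and 5 of them were tested. NDUFA4 carries a complex I symbol and was kept there, although its protein is now regarded as a part of complex IV.

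The members were short transcripts. The tested members had a median length of 750 bases against 2570 bases for all genes tested, and 65.4% of them lay under 1 kb against 9.77% of all genes tested. Library totals ran from 18092906 to 23634468 counts, and 9 or 10 of 10 myeloid markers exceeded 1 CPM (counts scaled by library size and TMM factor) in every library. Combination replicate 2 stood apart from the rest, with 12972 genes detected against 14142 to 14544 in the other libraries. The summed level of 6 T and NK cell markers was 84.3 CPM there, almost all from NKG7, against at most 35.0 in the other libraries, while CD3E and CD3G were at 0 in every library. The summed myeloid markers were at 9120 and 12300 CPM in the combination and at 1600 to 4250 in the other groups, and the part of either list in the results was not tested. WM1119 replicate 1 also showed a trend with transcript length, as described below. The main values are therefore given library by library, and fitted changes in the combination are given without combination replicate 2 where this turned the direction or moved the value by over 1.5 times.

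The promoters of the subunits were searched for motifs of 2 factors known to bind genes of the respiratory chain. In 250 bases before the start site (RefSeq, build GRCh38.p14; 66 of 82 subunits matched), the letters CATGCGC, from the middle of the NRF1 motif, were found on either strand in 14 promoters (21.2%), against 8.0% of the promoters of tested genes and 4.59% of all promoters. The ETS motif CCGGAAG, the core that the factor GABP (NRF2) reads, was found in 17 (25.8%), against 19.8% of tested genes and 10.2% of all. Both were found in 5 subunit promoters (7.58%), against 1.84% of tested genes, and any overlap between them was allowed. Of the 26 tested subunits with a motif, 5 had a window free of annotated exons. The sequences of all 5 are shown. In combination replicate 2 SDHB was 0.35 above DMSO on the log2 scale. The other 4 were more than 2-fold above there, where 36.8% of the tested subunits and 13.1% of all genes were. SDHB holds the same 2 motifs as COX5B. The capitals mark the motifs on either strand, and each sequence is written 5′ to 3′ on the strand of the gene.
SDHB (complex II, chr1:17054033-17054282, minus strand): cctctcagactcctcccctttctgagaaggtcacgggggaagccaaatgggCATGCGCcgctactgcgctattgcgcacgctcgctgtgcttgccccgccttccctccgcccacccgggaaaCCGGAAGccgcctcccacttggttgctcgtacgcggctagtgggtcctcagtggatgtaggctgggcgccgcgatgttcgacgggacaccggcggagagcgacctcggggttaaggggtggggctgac
NDUFB7 (complex I, chr19:14572067-14572316, minus strand): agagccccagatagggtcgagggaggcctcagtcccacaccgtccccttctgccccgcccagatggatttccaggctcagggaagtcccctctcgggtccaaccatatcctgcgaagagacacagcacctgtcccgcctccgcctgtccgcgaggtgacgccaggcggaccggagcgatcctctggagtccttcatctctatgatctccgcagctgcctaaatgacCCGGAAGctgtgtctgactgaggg
COX5B (complex IV, chr2:97645812-97646061, plus strand): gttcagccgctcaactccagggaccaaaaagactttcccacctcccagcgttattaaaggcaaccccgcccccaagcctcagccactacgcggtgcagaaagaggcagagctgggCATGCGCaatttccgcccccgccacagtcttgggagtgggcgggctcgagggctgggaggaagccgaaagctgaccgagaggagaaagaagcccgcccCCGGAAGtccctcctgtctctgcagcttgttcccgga
COX6B1 (complex IV, chr19:35648073-35648322, plus strand): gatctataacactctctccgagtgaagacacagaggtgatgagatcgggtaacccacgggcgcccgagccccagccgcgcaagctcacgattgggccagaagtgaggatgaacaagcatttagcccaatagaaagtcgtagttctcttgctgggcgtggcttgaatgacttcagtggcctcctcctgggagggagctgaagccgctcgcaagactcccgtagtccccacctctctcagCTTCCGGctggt
COX8A (complex IV, chr11:63974370-63974619, plus strand): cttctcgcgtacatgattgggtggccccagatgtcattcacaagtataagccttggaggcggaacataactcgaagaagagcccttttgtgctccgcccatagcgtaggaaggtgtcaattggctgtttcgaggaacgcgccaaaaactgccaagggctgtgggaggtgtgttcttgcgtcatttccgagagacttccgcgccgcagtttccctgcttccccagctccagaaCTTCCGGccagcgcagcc
The ETS motif lay 128 to 122 bases before the start in SDHB, 24 to 18 in NDUFB7, 37 to 31 in COX5B, 12 to 6 in COX6B1 and 18 to 12 in COX8A, and the NRF1 letters lay 199 to 193 bases before the start in SDHB and 135 to 129 in COX5B. In combination replicate 2 the median log2 difference from DMSO was 0.85 over 17 tested subunits with the ETS motif and 0.88 over 45 without it. For the NRF1 letters these medians were 0.60 over 14 subunits and 0.93 over 48. They were 0.02 and 0.01 in combination replicate 1, and both 0.32 in WM1119 replicate 1. The subunits with the letters had a median length of 786.5 bases and those without 672, and SDHB and SDHD of complex II are among the 14. The part of length in this gap was not tested. A match is a description of the letters, and binding was not measured.

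Levels of different genes were compared per transcript length, on the TPM scale, which gives every library the same sum. In DMSO the complexes differed in their median level, from 172 in complex I to 344 in complex III, 388 in complex II, 412 in complex V and 665 in complex IV, against 19.1 over all genes tested. ATP5B, the catalytic beta subunit of ATP synthase, was the highest of all at 1490 (1500 and 1490 in the 2 DMSO libraries). COX4I1, the ubiquitous form of a regulatory subunit of cytochrome c oxidase, followed at 974, and ATP5A1, the alpha subunit that alternates with ATP5B in the catalytic ring, at 855. COX8A, COX6B1 and UQCRB came next at 831, 822 and 808, values close enough that their order is not resolved. The lowest tested subunits were NDUFV3 at 7.14 and NDUFA4L2 at 8.84, both of complex I by symbol. The lengths used were medians over annotated transcripts, 5200 bases for NDUFV3 and 943 for NDUFA4L2. Which transcript the cells expressed was not determined, so these ranks depend on the assigned length. The subunits of complex I are made into one assembly, yet their transcript levels ran from 7.14 to 643 (NDUFS6).

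**Figure D1:**
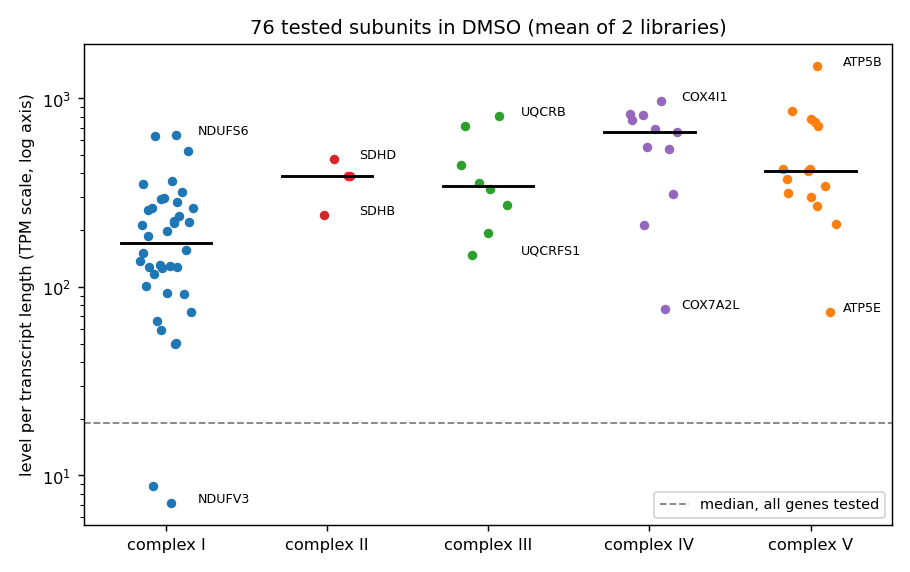
Level per transcript length in DMSO (TPM scale, log axis, mean of 2 libraries) of the 76 tested subunits, 1 point per gene, by complex. Bars are medians (172 in complex I to 665 in complex IV), the dashed line is the median of all genes tested (19.1), and only NDUFV3 and NDUFA4L2 lie below it.

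The isoform sets were resolved clearly. COX4I2, COX6A2 and COX7B2, which belong to lung, muscle or testis, had 0 counts in every library, which allows at most 0.127 to 0.166 CPM depending on the library (counting error only). COX6B2, COX7A1 and COX8C had 10, 10 and 6 counts over all 8 libraries together. Their ubiquitous partners COX4I1, COX6A1, COX7B, COX6B1, COX7A2 and COX8A were all expressed. These 6 rows are the subunits that were not tested. Of the genes that encode the identical c-ring protein of ATP synthase, ATP5G3 was highest in DMSO at 718 on the TPM scale, and ATP5G2 and ATP5G1 lay at 424 and 412 with overlapping values (423 and 425, and 393 and 431). NDUFA4L2, a hypoxia-linked relative of NDUFA4, was at 8.84 against 137 for NDUFA4.

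To ask whether either inhibitor alone or the combination changed these genes, 1 edgeR quasi-likelihood fit was made over all tested genes and the 4 groups. Each gene has 1 spread in this fit, taken from all 4 groups. The gap between the combination libraries thus enters the p-values of the single agents too. For each library a log2 difference from the DMSO mean was also taken, on CPM plus 0.5. The 3 comparisons with DMSO share the same 2 DMSO libraries. In bulk RNA, fewer cells of a state and less RNA per cell cannot be told apart.

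The subunits hardly moved with either inhibitor alone beyond the gap between the libraries of a group. No member passed an adjusted p of 0.05 for VTP50469, where 0.169% of all genes did with edgeR and 1.54% with DESeq2. No member had an unadjusted p under 0.05 in edgeR, where 6.75% of all genes did, and DESeq2 called 0 members. With only the VTP50469 and DMSO libraries in the fit, 0 members were called, where 10.4% of all genes were. The median fitted log2 change of the members was −0.02. The 2 VTP50469 libraries had subunit medians of −0.13 and 0.09 from DMSO, and 73 of 76 subunits were lower in replicate 1 than in replicate 2. Of the 81 members, 9 were higher in both VTP50469 libraries than in both DMSO libraries, where 27.4% of all genes were, and 10 were lower, where 27.6% were. Left with replicate 2 alone the median was 0.08, and with replicate 1 alone it was −0.15.

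WM1119 gave the same kind of picture with the replicates in the opposite order. No member passed the adjusted threshold, nor did any gene with edgeR (0.0%). DESeq2 called 0 members and 0.62% of all genes, and 0 members had an unadjusted p under 0.05 in edgeR, where 4.94% of all genes did. With only the WM1119 and DMSO libraries in the fit, 0 members and 0.379% of all genes were called. The median log2 change was 0.14, with library medians over the subunits of 0.32 in replicate 1 and −0.09 in replicate 2. A higher level in replicate 1 was seen for 75 of 76 subunits. Without replicate 1 the median turned to −0.09, and without replicate 2 it was 0.31. Both WM1119 libraries were above both DMSO libraries for 10 members (background 24.1%) and below for 4 (background 20.9%).

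The combination gave the largest shift of the 3 comparisons with DMSO, but it came from 1 of its 2 libraries. The median fitted change of the 81 tested members was 0.49 on the log2 scale against 0.01 for all genes tested, and 74 of 81 members were above 0. Combination replicate 1 had a subunit median of 0.01 and combination replicate 2 one of 0.88, and 73 of 76 subunits were higher in replicate 2. No member passed an adjusted p of 0.05 with edgeR, where 9.29% of all genes did. At an unadjusted p under 0.05 there were 7 members, all higher, against 30.3% of all genes in either direction. DESeq2 called 3 members, NDUFB6, NDUFB11 and NDUFB2, all higher, where it called 17.7% of all genes. Both combination libraries were above both DMSO libraries for 34 of 81 members (background 29.0%) and below for 4 (background 30.9%).

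**Figure D2:**
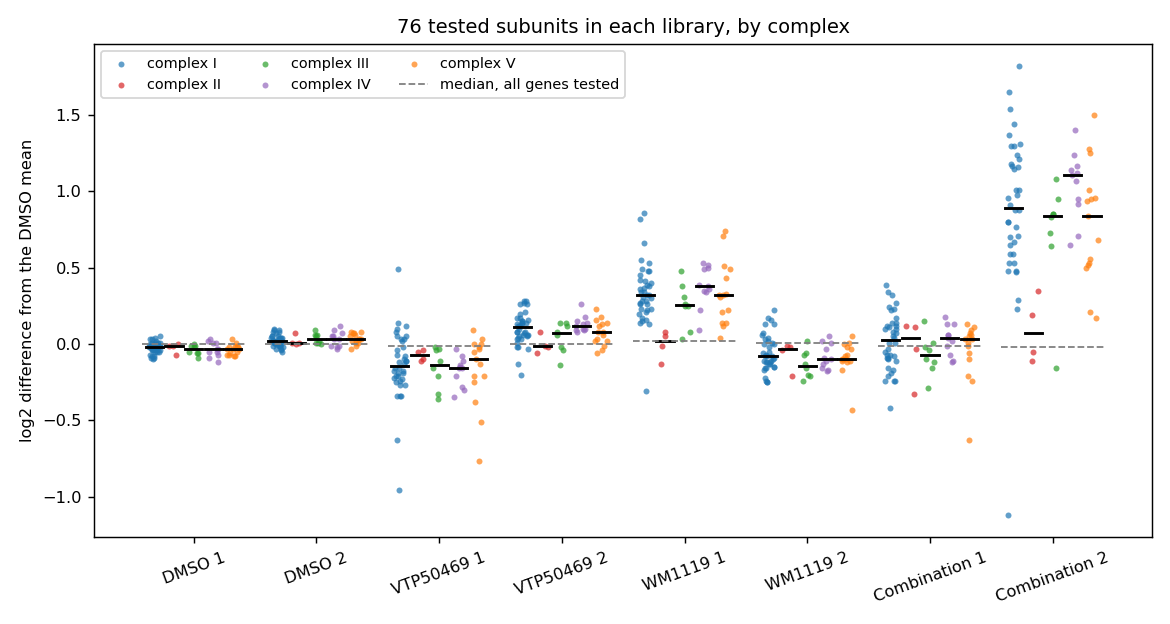
Log2 difference from the DMSO mean (y axis, CPM plus 0.5) of the 76 tested subunits in each of the 8 libraries, 1 point per gene, coloured by complex. Black bars are medians per complex and dashed lines the median of all genes tested; combination replicate 2 stands near 0.88 over the subunits and combination replicate 1 near 0.01, while complex II stays close to 0 in both.

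Leaving out single libraries showed how far the calls rested on this one. Without combination replicate 2, 0 members were called (background 15.0%) and the median was 0.03. Without combination replicate 1, 66 members were called, 64 higher and 2 lower (background 62.0%), and the median was 0.85. That fit takes the spread of the lone combination library from the other groups. Without combination replicate 2 and WM1119 replicate 1 together, an alternative chosen after the data were seen, NDUFB6 and NDUFB11 were called higher and SDHA lower (background 28.6%).

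Transcript length moved with these library differences. In combination replicate 2, the 28 members under 600 bases had a median log2 difference of 0.96 and the 25 members between 600 and 1000 bases one of 0.94. All genes of these lengths had medians of 0.78 and 0.76. The 16 members of 1 to 2 kb had 0.48 against 0.43 for all genes of that length. The 10 members of 2 to 4 kb had 0.58 against −0.10, and the 2 above 4 kb (NDUFA9 and NDUFV3) had 0.56 against −0.71. The longer members were mixed: of the 10, 7 lay above the median of all genes of 2 to 4 kb, while SDHA, at −0.11, was level with it and ATP5S and NDUFS1, at −0.55 and −1.12, were below. Across genes, the Spearman correlation of the difference with length was −0.51 over 12114 genes and −0.48 over 81 members. With the longest transcript in place of the median one, these were −0.49 and −0.24. In combination replicate 1 they were −0.13 and 0.15.

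**Figure D3:**
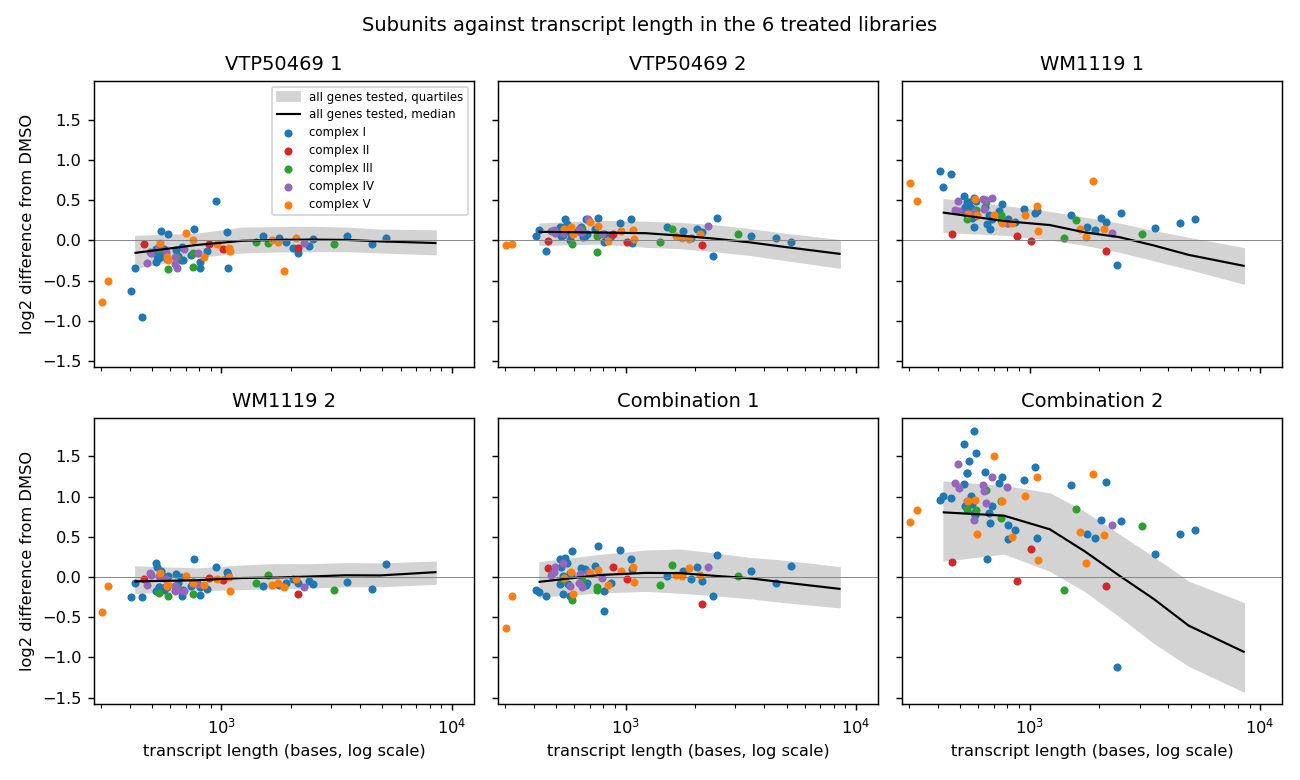
Log2 difference from the DMSO mean (y axis) against transcript length (x axis, log scale) in the 6 treated libraries, 1 point per tested subunit. The line and grey band are the median and quartiles of all genes tested at each length; the band slopes down in combination replicate 2 and less steeply in WM1119 replicate 1, and most subunits lie at the short end.

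WM1119 replicate 1 had the same slope at a smaller size. Its correlation with length was −0.47 over all genes and −0.62 over members, with medians of 0.39 for members under 600 bases and 0.33 for all genes of that length. VTP50469 replicate 1 sloped the other way among members (0.48), with hardly any slope over all genes (0.02). Still, all 267 genes under 600 bases had a median of −0.15 in VTP50469 replicate 1, against −0.20 for the 28 members of that length. The shortest subunits showed these library differences most plainly. ATP5I, a 303-base transcript for the subunit e of ATP synthase, had CPM values of 34.5 and 35.8 in DMSO, 20.3 and 33.7 in VTP50469, 57.6 and 25.9 in WM1119, and 22.4 and 56.7 in the combination. It was thus highest in WM1119 replicate 1 and combination replicate 2, and lowest in VTP50469 replicate 1. NDUFB1 and NDUFA3, small accessory subunits of complex I, followed the same order, with differences of −0.96 and −0.63 in VTP50469 replicate 1 and of 0.82 and 0.86 in WM1119 replicate 1. When the length trend of each library was entered as an offset in the fit, the median member change for the combination was 0.12 and 0 members were called (background 18.8%). The part of length in the library differences was not tested further.

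Complex I holds the flavin and the chain of iron-sulfur clusters that carry electrons from NADH to ubiquinone. Its core subunits did not move as one. NDUFS7 and NDUFS8, which hold iron-sulfur clusters near the ubiquinone site, were above both DMSO libraries in all 6 treated libraries. In each treatment alone, 24.1% to 29.0% of all genes lay above both DMSO libraries. The share that did so in all 6 was not counted. NDUFS8 had 62.9 and 64.4 CPM in DMSO, 69.1 and 76.2 in VTP50469, 88.7 and 66.7 in WM1119, and 75.4 and 174 in the combination. Its fitted change in the combination was 0.97 ± 0.36 (log2, SE) with an adjusted p of 0.134 by edgeR, and 0.26 without combination replicate 2. NDUFS7 changed by 0.91 ± 0.34 with the same adjusted p, and by 0.24 without combination replicate 2. For both genes the combination libraries lay above both DMSO libraries (background 29.0%), but they overlapped the libraries of each single agent. Combination replicate 2 made up most of the fitted change.

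NDUFS1, the largest subunit of complex I and a carrier of several iron-sulfur clusters, went the other way (hg38, GENCODE v44, chr2:206114817-206159509, minus strand). It had 165 and 162 CPM in DMSO, 156 and 142 in VTP50469, 132 and 158 in WM1119, and 139 and 74.8 in the combination. All 6 treated libraries were below both DMSO libraries, with combination replicate 2 far below the rest. In each treatment alone, 20.9% to 30.9% of all genes lay below both DMSO libraries. The share that did so in all 6 was not counted. The fitted change in the combination was −0.61 ± 0.27 with an adjusted p of 0.181 by edgeR. Without combination replicate 2 it was −0.22 (adjusted p 0.298), and without combination replicate 1 it was −1.13 (adjusted p 0.000435). It was the only tested subunit more than 2-fold below DMSO in combination replicate 2, where 28 (36.8%) were more than 2-fold above. Over all genes tested there, 13.1% were more than 2-fold above and 1989 of 12401 more than 2-fold below. NDUFS3, NDUFV1 and NDUFV2, also core subunits, were at 0.80, 1.15 and 0.59 in combination replicate 2 and between −0.24 and 0.01 in combination replicate 1.

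Among the 31 accessory subunits, which surround the core and are needed for its assembly, the median in combination replicate 2 was 0.91 and in replicate 1 0.05. NDUFB6 had the lowest p of all members (chr9:32553001-32573184, minus strand). Its CPM values were 35.6 and 39.7 in DMSO, 41.6 and 45.7 in VTP50469, 51.5 and 43.8 in WM1119, and 49.3 and 89.2 in the combination. Each treated library was above both DMSO libraries, as 24.1% to 29.0% of all genes were in each treatment alone. Even combination replicate 1 was 0.39 above on the log2 scale. The fitted change was 0.88 ± 0.27 with an adjusted p of 0.0922 by edgeR and 0.0278 by DESeq2. Without combination replicate 2 it was 0.40 (adjusted p 0.101), and with WM1119 replicate 1 also left out the adjusted p was 0.0258. NDUFB6 is a membrane-arm subunit, as are NDUFB11 and NDUFB2.

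NDUFB11, encoded on the X chromosome, had 78.1 and 86.6 CPM in DMSO, 86.8 and 89.4 in VTP50469, 116 and 82.8 in WM1119, and 102 and 239 in the combination. Both combination libraries were above DMSO, while WM1119 replicate 2 lay between the DMSO libraries. The change was 1.05 ± 0.37 (adjusted p 0.121 by edgeR, 0.0375 by DESeq2), and 0.33 without combination replicate 2 (adjusted p 0.265). NDUFB2 had 76.9 and 81.1 in DMSO and 93.0 and 249 in the combination, a change of 1.11 ± 0.42 (adjusted p 0.134 by edgeR, 0.0442 by DESeq2) that was 0.25 without combination replicate 2. Its row overlaps the antisense row NDUFB2-AS1, which was at 1.51 and 1.28 in DMSO and 0.890 and 0.991 in the combination, and the strand setting of the counting was not given in the sources used here. NDUFA13 (GRIM-19), also linked to interferon and retinoid-induced cell death, showed the widest gap between the combination libraries. It had 108 and 115 in DMSO, 115 in combination replicate 1 and 395 in combination replicate 2, and its fitted change of 1.19 ± 0.52 did not pass (adjusted p 0.172 by edgeR) and was 0.06 without that library. NDUFA4L2 was above both DMSO libraries in all 6 treated libraries, a pattern whose share over all genes was not counted. It had 4.60 and 4.31 CPM in DMSO and 4.92 to 6.47 in all treated libraries but combination replicate 2, which was the highest. Its change of 0.90 ± 0.33 (adjusted p 0.129 by edgeR) was 0.39 without that library.

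**Figure D4:**
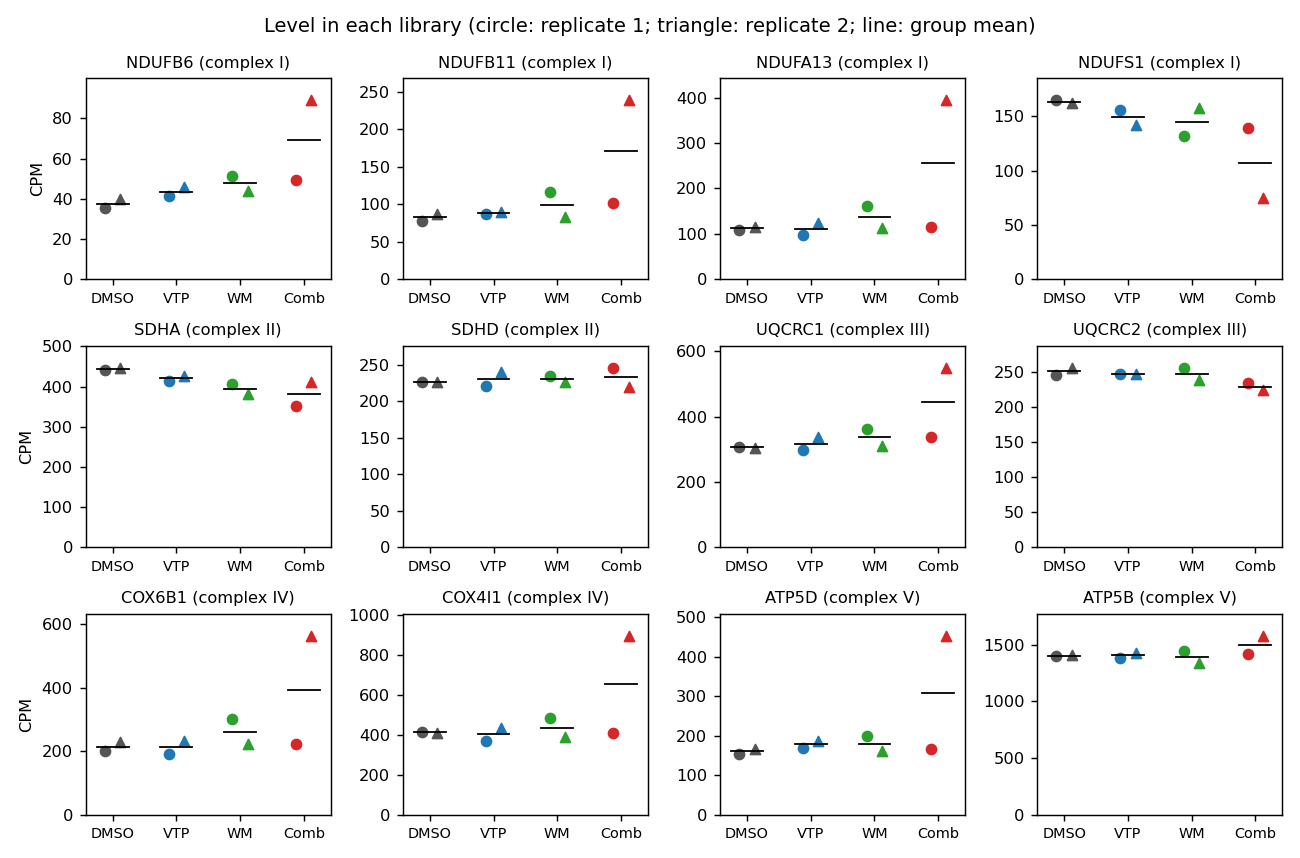
CPM with TMM factors (y axis, from 0) of 12 subunits in each library, by group (VTP, VTP50469; WM, WM1119; Comb, combination). Circles are replicate 1, triangles replicate 2 and lines the mean of the 2 libraries; for NDUFB11, NDUFA13, COX6B1, COX4I1 and ATP5D only combination replicate 2 lies well above the rest, NDUFS1 is lowest there, and SDHA, SDHD, UQCRC2 and ATP5B show no such gap.

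Complex II, which links the tricarboxylic acid cycle to the chain, had the smallest median in combination replicate 2 of the 5 complexes. Its median was 0.04 in combination replicate 1 and 0.07 in combination replicate 2, where the other complexes had 0.84 to 1.11. These medians rest on 4 genes. The 17 tricarboxylic acid cycle genes were also nearly level, with medians of −0.03 and −0.06 in combination replicates 1 and 2. SDHA, the flavoprotein that oxidises succinate, had 441 and 447 CPM in DMSO, 414 and 427 in VTP50469, 407 and 382 in WM1119, and 352 and 411 in the combination. All 6 treated libraries lay below both DMSO libraries, as 20.9% to 30.9% of all genes did in each treatment alone. The share over all genes in all 6 was not counted. The change in the combination was −0.22 ± 0.13 (adjusted p 0.276 by edgeR), and −0.32 (adjusted p 0.0629) without combination replicate 2. It was called lower once WM1119 replicate 1 was left out as well (adjusted p 0.00971). SDHB, the iron-sulfur subunit, had 130 and 132 CPM in DMSO and 129 and 167 in the combination, a fitted change of 0.18 ± 0.15 that was −0.01 without combination replicate 2. SDHC, a membrane anchor, lay 0.11 and 0.19 above DMSO on the log2 scale in the 2 combination libraries (0.15 ± 0.12), and SDHD, the other anchor, had 227 and 227 CPM in DMSO and 246 and 220 in the combination (0.04 ± 0.12, and 0.13 without combination replicate 2). None of the 3 passed, and with the length offset their fitted changes turned to −0.21, −0.16 and −0.32, where the member median was 0.12. The share of all counts that fell in the 93 members was 1.23% to 1.37% in 6 of the libraries, 1.52% in WM1119 replicate 1 and 1.92% in combination replicate 2.

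In complex III, UQCRC1 and UQCRC2, the paired core proteins that face the matrix, parted. UQCRC1 had 306 and 305 CPM in DMSO, 298 and 336 in VTP50469, 362 and 309 in WM1119, and 339 and 550 in the combination. UQCRC2 had 246 and 255, 247 and 247, 256 and 238, and 234 and 224 in the same order. Both combination libraries were above DMSO for UQCRC1 and below it for UQCRC2. Their changes were 0.54 ± 0.23 (adjusted p 0.169 by edgeR) and −0.13 ± 0.11 (adjusted p 0.446), so neither passed. UQCRC1 was at 0.16 and UQCRC2 at −0.08 without combination replicate 2. UQCRFS1, the Rieske iron-sulfur protein, had 233 and 254 CPM in DMSO and 244 and 380 in the combination, a change of 0.36 ± 0.22 that was 0.02 without combination replicate 2. UQCRB, a small subunit, had 267 and 290 in DMSO and 271 and 588 in the combination, a change of 0.62 ± 0.37 that turned to −0.03 without that library. In both genes combination replicate 1 lay between the DMSO libraries. UQCRB and UQCRH may share reads with the retrocopies UQCRBP1 and UQCRHL, whose rows were counted apart, so their counts are uncertain to that extent.

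Complex IV had the highest median of any complex in combination replicate 2 (1.11) and 0.04 in replicate 1. All 11 tested subunits were above both DMSO libraries in replicate 2 (background 46.1%), and 7 were more than 2-fold higher (background 13.1%). COX6B1, which joins the monomers of the oxidase, had 202 and 228 CPM in DMSO, 192 and 234 in VTP50469, 302 and 222 in WM1119, and 223 and 565 in the combination. Combination replicate 1 lay between the DMSO libraries. Its change was 0.88 ± 0.40 (adjusted p 0.19 by edgeR), and 0.07 without combination replicate 2. COX6A1, a small structural subunit, had 153 and 158 in DMSO and 176 and 300 in the combination, and COX8A, another, had 223 and 216 and then 240 and 475. Both combination libraries were above DMSO for each, with replicate 2 far above replicate 1. Their changes of 0.61 ± 0.26 and 0.70 ± 0.31 (adjusted p 0.164 and 0.176 by edgeR) were 0.19 and 0.14 without combination replicate 2. COX4I1 had 416 and 411 in DMSO, 410 in combination replicate 1 and 898 in combination replicate 2. COX7A2L, which takes part in respiratory supercomplexes, was the least raised of the complex in replicate 2 at 0.65.

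Complex V joins a catalytic head outside the membrane to a rotor within it, and its subunits ranged from nearly level to among the most raised in combination replicate 2. ATP5B was nearly level, with 1400 and 1410 CPM in DMSO, 1380 and 1430 in VTP50469, 1440 and 1340 in WM1119, and 1420 and 1580 in the combination (0.09 ± 0.12, adjusted p 0.605 by edgeR, and 0.03 without combination replicate 2). ATP5A1, with 941 and 981 in DMSO and 982 and 1380 in the combination, changed by 0.30 ± 0.18, and by 0.05 without combination replicate 2. ATP5C1, the gamma subunit that turns within the ring, had 184 and 182 in DMSO and 175 and 212 in the combination, a change of 0.08 ± 0.16 that turned to −0.05 without that library. None of these 3 proteins of the catalytic head passed. ATP5D, the delta subunit of the central stalk, was at the other end, with 154 and 166 in DMSO, 170 and 187 in VTP50469, 199 and 161 in WM1119, and 166 and 453 in the combination. Its change of 0.95 ± 0.41 (adjusted p 0.174 by edgeR) was 0.06 without combination replicate 2. ATP5L, of the membrane part, had 146 and 164 in DMSO and 169 and 367 in the combination, and ATP5O, of the peripheral stalk, had 299 and 329 and then 333 and 604. Their changes of 0.79 ± 0.35 and 0.58 ± 0.27 did not pass and were 0.14 and 0.10 without combination replicate 2.

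**Figure D5:**
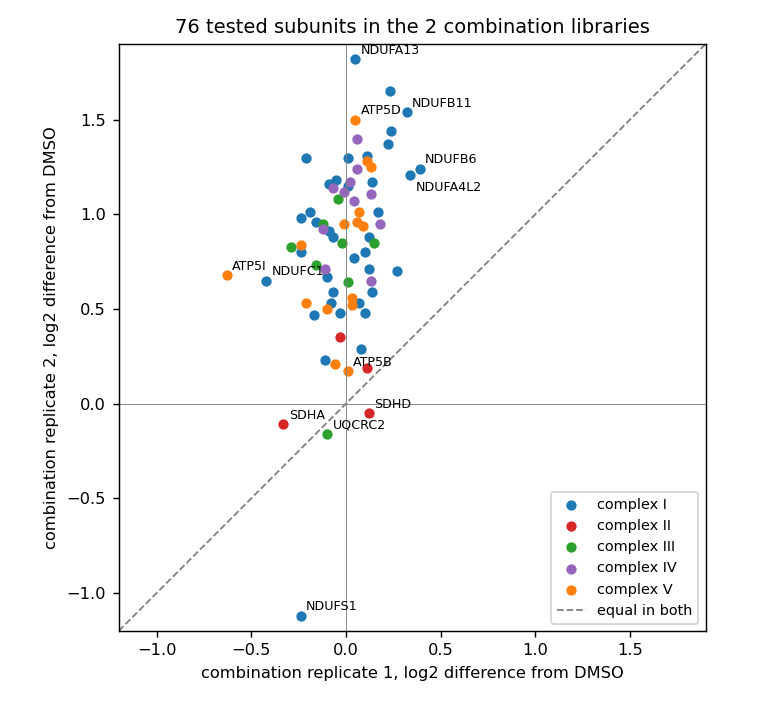
Log2 difference from the DMSO mean of the 76 tested subunits in combination replicate 1 (x axis) and combination replicate 2 (y axis), coloured by complex, with the line of equal values dashed. Of the subunits, 75 lie within 0.5 of DMSO on the x axis and 63 lie above 0.5 on the y axis. The medians of all genes tested are −0.01 in replicate 1 and −0.02 in replicate 2. NDUFS1, SDHA and UQCRC2 are below DMSO in both libraries.

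Against the single agents, the shift again came from combination replicate 2. The median member change was 0.52 over VTP50469 and 0.35 over WM1119, and no member passed with edgeR (background 0.395% and 1.43%) or DESeq2 (background 5.3% and 5.53%). At an unadjusted p under 0.05 in edgeR, 5 members were higher than in VTP50469 (background 17.9%) and 0 differed from WM1119 (background 16.7%). The lowest adjusted p by edgeR was 0.257 for NDUFB2 over VTP50469 and 0.321 for COX7A2L over WM1119. For the departure of the combination from the sum of the single changes, the median was 0.40 on the log2 scale, no member passed by edgeR (background 0.0%) or DESeq2 (background 0.0305%), and 0 had an unadjusted p under 0.05 in edgeR (background 2.2%). Without combination replicate 1, 67 members were called over VTP50469 (background 57.5%), 60 over WM1119 (background 55.4%) and 38 for the departure (background 31.6%). Without combination replicate 2, 0 were called in any of the 3 (background 2.59%, 4.26% and 0.0%), and the medians were 0.02 over VTP50469, −0.08 over WM1119, with 21 of 81 members above 0, and −0.07 for the departure. The median over WM1119 was 0.58 without WM1119 replicate 1 and 0.17 without WM1119 replicate 2. For the departure it was 0.61 and 0.20 without these libraries and 0.26 without VTP50469 replicate 1.

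Other mitochondrial genes gave a range of values. The 6 electron carriers and subunits that the symbol pattern misses had a median change of 0.31 in the combination, which turned to −0.11 without combination replicate 2, and none passed (background 9.29%). CYC1, cytochrome c1, had 721 and 730 CPM in DMSO and 599 and 834 in the combination, and CYCS, cytochrome c, had 466 and 484 and then 432 and 532. Each was below DMSO in the first combination library and above it in the other, with fitted changes of −0.02 and 0.02, and of −0.26 and −0.12 without combination replicate 2. Of 48 tested assembly factors 0 passed, and their median of 0.15 turned to −0.05 without combination replicate 2. Of 17 tricarboxylic acid cycle genes 0 passed, with medians of −0.05 and −0.02. Without combination replicate 2, 1 of the 48 and 1 of the 17 were called, both lower, where 15.0% of all genes were called and 5.8% called lower: LRPPRC, which stabilises mitochondrial messenger RNA, from 524 and 531 CPM in DMSO to 373 in combination replicate 1 (log2 change −0.49, adjusted p 0.0199 by edgeR), and DLAT, of the pyruvate dehydrogenase complex, from 200 and 199 to 148 (−0.42, adjusted p 0.0383). Of 79 tested mitochondrial ribosomal protein rows, 1 was called, lower (MRPL19; background for lower calls 3.44%), with a median of 0.20. There were 6 lower without combination replicate 2, near the share of all genes called lower (background 5.8%), and the median turned to −0.14.

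Regulators of mitochondrial biogenesis, which are long transcripts (median 3644 bases), had a median change of −0.36 in the combination, and −0.24 without combination replicate 2, and 0 of 14 tested passed. PPARGC1B is a coactivator of respiratory genes. It had 84.6 and 85.5 CPM in DMSO, 71.0 and 62.9 in VTP50469, 55.7 and 79.6 in WM1119, and 60.2 and 22.5 in the combination. All 6 treated libraries were below both DMSO libraries, a pattern whose share over all genes was not counted. The change of PPARGC1B was −1.04 (adjusted p 0.153 by edgeR), and −0.49 without combination replicate 2. TFAM, the packaging and transcription factor of mitochondrial DNA, had 164 and 161 in DMSO and 136 and 97.3 in the combination (−0.48, adjusted p 0.124 by edgeR, and −0.25 without that library). Only TEFM (0.25) and MTERF1 (0.11) were above 0, at 0.03 and 0.20 without that library. NRF1 and GABPA were at −0.13 and −0.54, and at −0.10 and −0.03 without it. In combination replicate 2 the regulators had a median of −0.44, where all genes of 2 to 4 kb had −0.10 and longer genes −0.71. The part of length was not tested. PPARGC1A, the best known coactivator of the family, was not tested, with counts in 1 library only.

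Cytoplasmic ribosomal protein and proteasome rows were highest in the same libraries as the subunits. Cytoplasmic ribosomal protein rows (83 tested, median length 761 bases) had medians of 0.87 in combination replicate 2, −0.11 in combination replicate 1 and 0.32 in WM1119 replicate 1, where the subunits had 0.88, 0.01 and 0.32. Their median fitted change in the combination was 0.45, which turned to −0.10 without combination replicate 2, and 0 were called. The 42 tested proteasome rows, with a median length of 1362 bases, had 0.51, 0.07 and 0.19 in these libraries. Their median fitted change in the combination was 0.33, and 0.09 without combination replicate 2. Of them 2 were called higher, PSMB9, of the immunoproteasome, and PSMB8-AS1, an antisense row that the symbol pattern takes in, where 5.85% of all genes were called higher.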

How the data were processed

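RNA from 8 MOLM-13 libraries in 4 groups of 2 was analysed. The authors deposited 1 table of estimated counts per gene, many of them fractional, which were rounded to whole numbers here. Per the labels, reads were aligned to hg38 with STAR 2.5.1b and DESeq2 was used; the counting tool, annotation and strand setting were not given in the sources used here, and labels and paper name different media and kits. No columns held other series' samples or the authors' comparisons.

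Genes passing filterByExpr were fitted with edgeR 4.0.16 (quasi-likelihood, TMM factors, Benjamini-Hochberg adjustment over all 12401 tested genes), with the 4 groups in 1 fit. CPM used TMM factors; log2 differences used CPM plus 0.5. Transcript lengths were medians of GENCODE v44 basic transcripts; 21 members were matched by an older symbol. Promoters came from RefSeq; intervals and limits cover counting error only. The scripts were tested on simulated data.

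The named genes were the core subunits, complex II, isoform sets, the 3 lowest p-values in each of complexes I, III, IV and V, and listed pathway genes; the 5 promoters and the shortest or most extreme members in 1 library were chosen after their values were seen. Members and lists were chosen with earlier results of these data known. Alternatives were DESeq2, 2 other scalings, 2 other filters, a replicate block, a fit of only 2 groups, each library left out in turn, a length offset (loess span 0.4) and limma voom with quality weights; leaving out 2 libraries together was added after seeing the data.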

Additional observations from a re-analysis of the deposited data

How the results depend on the processing

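The count of members called for the combination against DMSO was 0 with edgeR and in all alternatives but 3: DESeq2 called 3, and leaving out single libraries gave 0 to 66, with 66 only without combination replicate 1, and leaving out combination replicate 2 and WM1119 replicate 1 together called 3. Leaving out single libraries gave 0 to 67 for the combination against VTP50469, 0 to 60 against WM1119 and 0 to 38 for the departure from additivity, each maximum again without combination replicate 1, where 57.5%, 55.4% and 31.6% of all genes were called. For VTP50469 or WM1119 against DMSO, 0 members were called in the 18 alternatives, in which 0.0% to 10.4% and 0.0% to 2.04% of all genes were called. No gene at all was called in 6 and 11 of these, where 0 members says nothing about the members. For the combination against DMSO, the alternatives that kept every library called 0.0% to 18.8% of all genes. The fit of only the groups compared called no gene at all, so 0 members there says nothing either. The median member change for the combination ran from 0.03 to 0.85 when single libraries were left out, for VTP50469 from −0.15 to 0.08 and for WM1119 from −0.09 to 0.31. It was 0.12, −0.05 and 0.01 with the length offset. With scaling by library size only, the median of all genes in the combination was −0.10 in place of 0.01, and the member median was 0.34.

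Without TMM factors the summed CPM of all members in combination replicate 2 was 19200 in place of 22000, against 12300 to 15200 in the other libraries. Of the named members, UQCRB was at −0.03 and SDHB at −0.01 without combination replicate 2, with or without WM1119 replicate 1. Leaving out single libraries gave −0.03 to 1.08 for UQCRB, −0.01 to 0.35 for SDHB and −0.05 to 0.13 for SDHD. SDHB, SDHC and SDHD were at −0.21, −0.16 and −0.32 with the length offset, and SDHD was at −0.07 with library size only and −0.05 without combination replicate 1. The cause was not tested. Correlations of same-numbered deviations from the group means ran from −0.443 to 0.173. The 2 libraries with the strongest length trends carry different replicate numbers, so these correlations cannot decide whether same-numbered libraries were paired. With the replicate block, 0 members were called in each comparison, where 4.26% of all genes were called for the combination, 0.121% for VTP50469 and 0.0% for WM1119 against DMSO, and the median for the combination was 0.45. With 2 libraries a group and a gap of the size seen between the combination libraries, changes of most members in the combination could not be resolved.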
